A study of Mus musculus with 6 samples.

Results

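The genes of creatine and adenylate energy transfer were described in gastrocnemius muscle, the large calf muscle, of male C57BL6J mice. The 10 members were the rows of the count table whose gene symbol was Ckm, Ckmt2, Ckmt1, Ckb, Slc6a8, Gatm, Gamt, Ak1, Ampd1 or Ampd3, out of 49315 genes in all. Mice were 5 months old when an adeno-associated virus (AAV9) was injected into the muscle, which was taken 5 months later. In the AAV9-HSA-CAAHR group (3 libraries, replicates 31, 34 and 36) the virus carried a constitutively active aryl hydrocarbon receptor (CAAHR), mouse AHR without its ligand-binding domain. In the AAV9-HSA-GFP group (3 libraries, replicates 42, 43 and 46) it carried a green fluorescent protein. All 6 muscles thus received virus, and both inserts stood behind the same promoter, that of human skeletal actin (HSA), which drives expression in muscle fibres. The comparison asked how these transcripts differed between the vectors, since the study measured muscle fatigue and mitochondrial energy supply in the same model.

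Creatine kinases move phosphate between ATP and creatine, so that phosphocreatine buffers ATP during contraction. The muscle isoform, encoded by Ckm, lies in the cytosol and at the M-band of the sarcomere, while the mitochondrial isoforms charge creatine at the site where ATP is made. Adenylate kinase recovers ATP from ADP and leaves AMP, which AMP deaminase removes as IMP. Fast muscle fibres are known for abundant muscle creatine kinase, adenylate kinase 1 and AMP deaminase 1, and oxidative fibres for the sarcomeric mitochondrial isoform encoded by Ckmt2. Most creatine is made outside muscle and is taken up through the transporter encoded by Slc6a8.

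Library totals were between 43432994 and 58825752 counts. Levels are given as CPM, a gene's counts scaled to the same total in every library, after TMM scaling (edgeR's trimmed mean of log ratios). The delivered gene checked the labels, as Ahr was at 9.97, 22.8 and 17.3 CPM in CAAHR replicates 31, 34 and 36 and between 1.87 and 2.55 CPM in GFP libraries. Its target Cyp1a1 was at 1231, 1680 and 1517 CPM in CAAHR replicates 31, 34 and 36, against 5.85 to 7.74 CPM in GFP libraries. Replicate 34 was the highest in both genes. The defining skeletal muscle markers Acta1, Ttn, Des, Mb, Casq1 and Ryr1 were all expressed. They summed to between 44733.5 and 45476 CPM in AAV9-HSA-CAAHR libraries and between 58400.4 and 61651 CPM in GFP libraries, and of these genes Acta1 was called, lower. Acta1, the most abundant, had a mean of 21799 CPM in AAV9-HSA-CAAHR and 36461 CPM in GFP libraries. Of the 6 genes 3 had a positive and 3 a negative fold change. Among AAV9-HSA-CAAHR libraries replicate 34 stood apart in slow-fibre transcripts, with a summed level of 677 CPM over 10 markers against 3007 in replicate 31 and 2694 in replicate 36. GFP libraries had 238, 351 and 489 CPM.

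Of the 10 members, 1 changed between the groups. Ckm was lower in AAV9-HSA-CAAHR muscles, and no member was called higher. A call was a p under 0.05 in edgeR's quasi-likelihood test after Benjamini-Hochberg adjustment over all 15847 tested genes. By this rule 7.60% of tested genes were called (3.04% higher and 4.57% lower), so the members were called about as often as genes at large. The share of all calls that were higher was 39.9%, and it was 26.6% with upper quartile scaling and 59.3% with library size only, under each of which Ckm remained the member called. All 10 members passed the filter on low counts. The members' median log2 fold change was -0.10, beside 0.01 for all tested genes. Ckm, Ckb, Slc6a8, Gatm and Ampd3, 5 of the members, were at an unadjusted p under 0.05, where 23.9% of tested genes reached this level. The groups did not overlap for 4 members, Ckm, Ckb and Gatm being lower and Slc6a8 higher in every AAV9-HSA-CAAHR library, and 29.9% of tested genes did not overlap (15.0% with every AAV9-HSA-CAAHR library above and 14.9% below). With DESeq2 Ckm and Ampd3 were called, and without a filter on low counts Ckm, Gatm and Ampd3 were called.

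**Figure D1:**
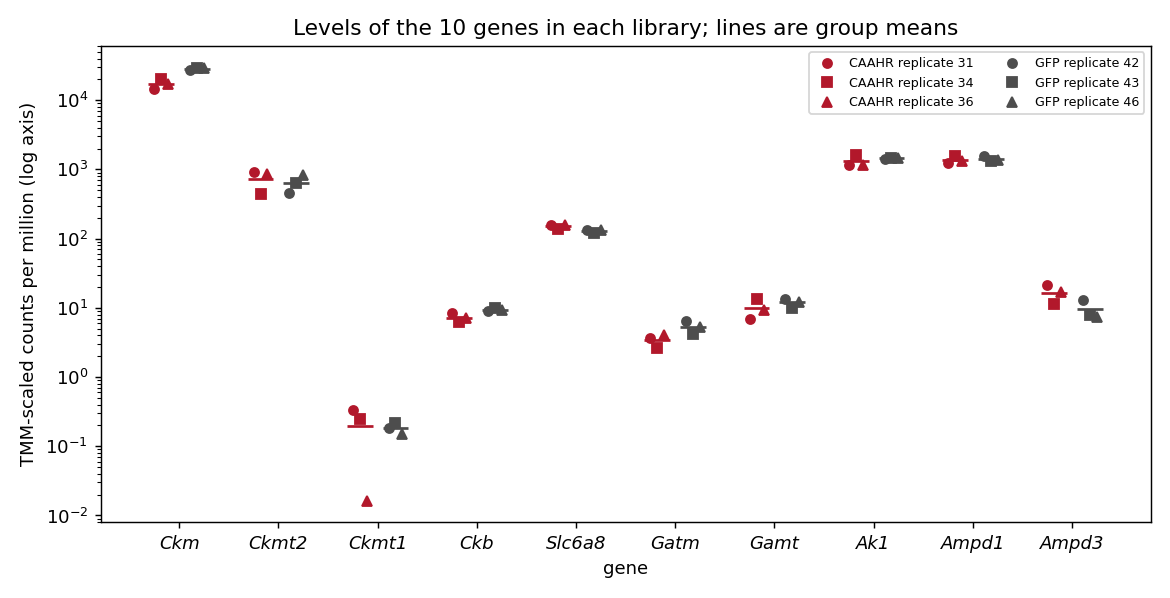
TMM-scaled CPM of the 10 genes, on a log axis, in 3 AAV9-HSA-CAAHR (red) and 3 AAV9-HSA-GFP (grey) libraries, with lines at group means. Ckm ranged from 14426 to 29593 CPM and was lower in each AAV9-HSA-CAAHR library, while Ckmt1 was at most 0.336 CPM.

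Ckm (ENSMUSG00000030399, chromosome 7, 19404776 to 19422841, plus strand, GRCm38) encodes the muscle creatine kinase and was the 5th most abundant gene of the table by mean share of counts. It was at 14426 CPM in CAAHR replicate 31, 20556 in replicate 34 and 16992.5 in replicate 36. In GFP replicates 42, 43 and 46 it was at 27438, 28981 and 29593 CPM. Every AAV9-HSA-CAAHR library lay below every GFP library, and the AAV9-HSA-CAAHR libraries were spread more widely. Group means were 17325 ± 3079 CPM against 28670.5 ± 1111 CPM (SD, n = 3 per group). The log2 fold change was -0.73 ± 0.16 (SE), so that the level fell by 39.6% (edgeR adjusted p 0.0251). The study had itself named Ckm from these libraries, so this call is not independent evidence of its direction.

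The Ckm call depended on which libraries were fitted. It was kept in 1 of the 6 fits that each left out 1 library, the fit without CAAHR replicate 34, where the log2 fold change was -0.88 (edgeR adjusted p 0.00233). The adjusted p by the same test was 0.0557 without CAAHR replicate 31, 0.112 without CAAHR replicate 36, 0.0671 without GFP replicate 42, 0.0844 without GFP replicate 43 and 0.0980 without GFP replicate 46. The log2 fold change lay between -0.88 and -0.62 in all 6 fits. Over all genes 1727 were called without CAAHR replicate 34 and between 530 and 849 in each other fit, beside 1205 with every library. With the mean of the slow fibre markers as a covariate the log2 fold change of Ckm was -0.40 ± 0.22, and the call was lost with an adjusted p of 0.382 (edgeR). This covariate is largely aligned with the groups, so the fit cannot separate fibre type from vector.

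**Figure D2:**
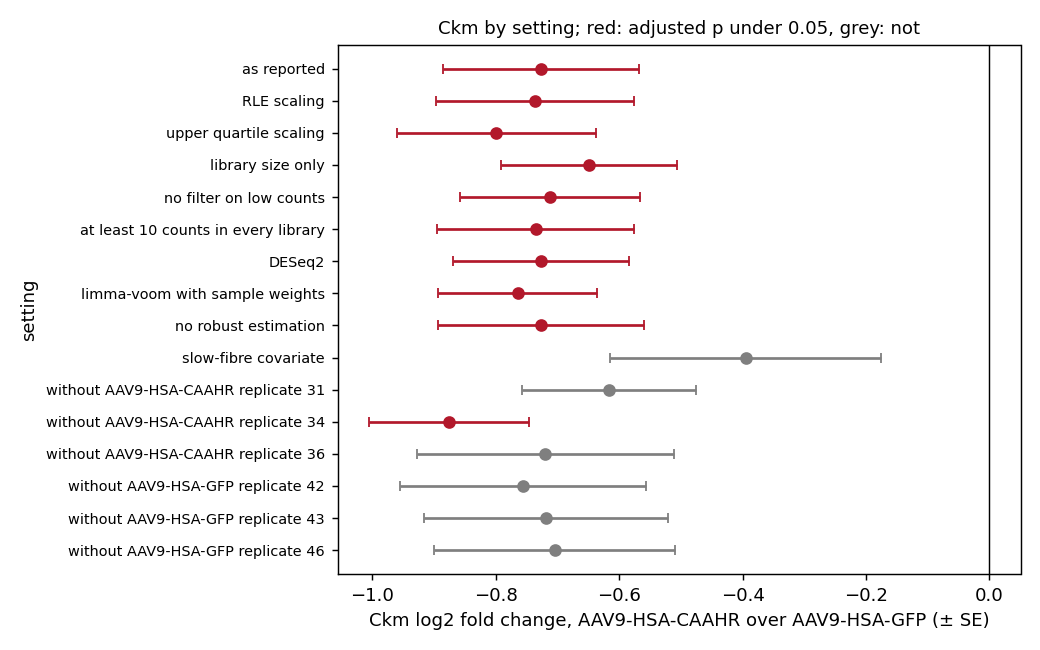
Log2 fold change of Ckm (AAV9-HSA-CAAHR over AAV9-HSA-GFP, x axis, bars ± SE) for each way of processing the counts (y axis), red where the adjusted p was under 0.05. Every value is below 0, from -0.88 without CAAHR replicate 34 to -0.40 with the slow-fibre covariate, and 5 of the 6 fits without 1 library are grey.

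As a share of all counts, before any scaling, Ckm held 1.52%, 2.05% and 1.76% of CAAHR replicates 31, 34 and 36. It held 2.70%, 2.78% and 2.88% of GFP replicates 42, 43 and 46. The difference in means was -1.01 percentage points, which gave p = 0.1 in a two-sided exact permutation test, the smallest value that 3 libraries against 3 can give. This was 1 of 6 such tests, and the Benjamini-Hochberg adjusted value over the 6 exact tests was 0.3. The test of the share used the same Ckm counts as the CPM values, whose groups did not overlap, so it adds no independent evidence.

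The sequence just upstream of the start is shown for Ckm, the member that was called, and for Ckmt2, its mitochondrial partner, which was not called. Each stretch is the 250 bases before the RefSeq start (GRCm38.p6), read 5′ to 3′ on the gene's strand. Ckm lies at chr7:19410844-19411093 on the plus strand and Ckmt2 at chr13:91876886-91877135 on the minus strand. Capitals mark the E-box CANNTG, the core bound by myogenic basic helix-loop-helix factors, and GCGTG, the core bound by AHR with its partner ARNT, the latter on either strand and so also as CACGC.
Ckm: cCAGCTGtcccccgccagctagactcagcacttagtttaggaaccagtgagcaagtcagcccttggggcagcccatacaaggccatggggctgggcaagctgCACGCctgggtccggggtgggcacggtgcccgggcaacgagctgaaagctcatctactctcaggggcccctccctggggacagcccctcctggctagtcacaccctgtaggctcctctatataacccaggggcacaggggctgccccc
Ckmt2: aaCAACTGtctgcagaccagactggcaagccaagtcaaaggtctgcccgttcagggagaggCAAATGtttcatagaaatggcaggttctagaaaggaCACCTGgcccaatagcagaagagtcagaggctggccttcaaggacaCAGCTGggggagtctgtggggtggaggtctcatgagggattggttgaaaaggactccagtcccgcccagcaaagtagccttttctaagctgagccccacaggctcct

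The Ckm window held 1 E-box, at its upstream end, and 1 CACGC, 148 to 144 bases upstream. The Ckmt2 window held 4 E-boxes and no GCGTG or CACGC, and in neither window did the motifs overlap. Of 32851 promoter windows of this length, 66.2% held an E-box and 28.2% held GCGTG on either strand. Of the 10 members 8 were matched in the RefSeq promoter table used here, and besides Ckm only Gamt and 1 of the 4 Ak1 starts held GCGTG or CACGC in the 250 bases. These are matches of letters and were not tested as binding sites.

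Ckmt2 (chromosome 13, 91853387 to 91876885), which encodes the sarcomeric mitochondrial creatine kinase, was at 904, 447 and 851 CPM in CAAHR replicates 31, 34 and 36. It was at 461, 628 and 842 CPM in GFP replicates 42, 43 and 46. The groups overlapped, replicate 34 being the lowest of all libraries, and the log2 fold change was 0.19 ± 0.31 (SE). Ckb (chromosome 12, 111669361 to 111672338), the brain-type cytosolic isoform, was at 8.44, 6.25 and 7.04 CPM in CAAHR libraries and 8.89, 9.88 and 9.31 CPM in GFP libraries. Its AAV9-HSA-CAAHR libraries all lay lower, but the log2 fold change of -0.37 ± 0.14 did not pass (edgeR adjusted p 0.135). Ckmt1 (chromosome 2, 121357714 to 121363737), the ubiquitous mitochondrial isoform, had 17, 14 and 1 counts in CAAHR libraries and 9, 9 and 8 counts in GFP libraries. At this depth a difference in Ckmt1 was not detectable, and its log2 fold change was 0.09 ± 0.74.

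Set per kilobase of exon, which allows levels of different genes to be compared, Ckm made up most creatine kinase transcripts in every library. Its share of the summed CPM per kilobase of the 4 kinase genes was 89.0%, 95.9% and 91.0% in CAAHR replicates 31, 34 and 36. The share was 96.8%, 95.9% and 94.7% in GFP replicates 42, 43 and 46. Ckmt2 made up nearly all of the rest, at 10.9%, 4.09% and 8.93% in CAAHR libraries against 3.19%, 4.08% and 5.28% in GFP libraries. CAAHR replicate 34 fell inside the GFP range for both shares, and the other AAV9-HSA-CAAHR libraries fell outside it. The share of Ckb was at most 0.0524% in any library.

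The ratio of a pair of genes within a library does not depend on how libraries are scaled. The count ratio of Ckm to Ckmt2 was 16.0, 45.97 and 20.0 in CAAHR replicates 31, 34 and 36 and 59.5, 46.1 and 35.1 in GFP replicates 42, 43 and 46. The groups overlapped through replicate 34, and the difference in mean log2 ratio was -0.91 (two-sided exact permutation test, p = 0.2, adjusted value 0.3 over the 6 tests). Without CAAHR replicate 34 that difference was -1.36.

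The ratio of Ckm to Ak1, which encodes the cytosolic adenylate kinase of muscle, was 12.5, 12.6 and 14.7 in AAV9-HSA-CAAHR libraries and 19.2, 19.5 and 20.4 in GFP libraries. Here no library overlapped with the other group, and the difference of -0.57 in log2 ratio gave p = 0.1, the smallest possible (exact permutation test, adjusted value 0.3). The ratio was lower in 3 of 3 AAV9-HSA-CAAHR libraries. Acta1, the skeletal actin gene, served as a reference outside the pathway and was chosen with its own fall in these libraries known. The ratio of Ckm to Acta1 was 0.664, 0.934 and 0.784 in CAAHR replicates 31, 34 and 36, and between 0.781 and 0.793 in the GFP libraries. The mean log2 ratios were -0.35 ± 0.25 and -0.35 ± 0.01 (SD, n = 3 per group), with p = 1.0 by the exact permutation test. Acta1 itself had a log2 fold change of -0.74 ± 0.13 (edgeR adjusted p 0.00895). The ratio of Ckb to Ckm was higher in CAAHR replicates 31 and 36 than in any GFP library and lower in replicate 34, with a difference of 0.36 in log2 ratio (exact permutation test, p = 0.4, adjusted value 0.48).

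**Figure D3:**
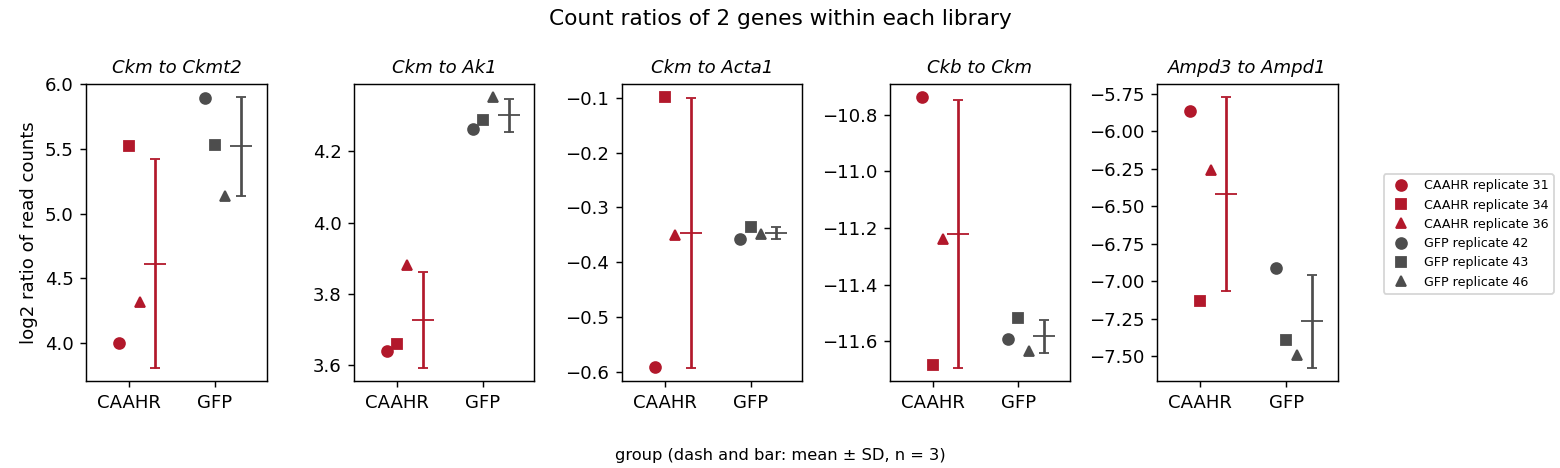
Log2 ratios of read counts for 5 gene pairs within each library (y axes, each with its own range), by group (x axis), with mean ± SD at the side of each group (n = 3). Ckm to Ak1 separated the groups, Ckm to Ckmt2 overlapped through CAAHR replicate 34, and Ckm to Acta1 had the same mean in both groups with a wider spread in AAV9-HSA-CAAHR libraries.

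None of the 3 genes that supply creatine was called. The transporter had a positive fold change and both synthesis enzymes a negative one. Slc6a8 (chromosome X, 73673150 to 73682502), the plasma membrane creatine transporter, was at 159, 138 and 155 CPM in CAAHR replicates 31, 34 and 36. It was at 134, 122 and 131 CPM in GFP replicates 42, 43 and 46. Every AAV9-HSA-CAAHR library lay above every GFP library by a narrow margin, and the log2 fold change of 0.22 ± 0.10 (SE) did not pass (edgeR adjusted p 0.207).

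Gatm (chromosome 2, 122594467 to 122611303) encodes the enzyme that forms guanidinoacetate from arginine and glycine, the first step of creatine synthesis. It was at 3.68, 2.64 and 4.07 CPM in AAV9-HSA-CAAHR libraries and 6.51, 4.16 and 5.25 CPM in GFP libraries. The groups did not overlap, but CAAHR replicate 36 lay just under GFP replicate 43. The log2 fold change was -0.62 ± 0.21 with an adjusted p of 0.113 by edgeR, or 0.0160 without a filter on low counts and 0.0685 with DESeq2. Gamt (chromosome 10, 80258151 to 80261012), the methyltransferase that completes the synthesis, was at 6.82, 13.4 and 9.19 CPM against 13.6, 10.1 and 12.3 CPM, and the groups overlapped. Its log2 fold change was -0.29 ± 0.23. Both synthesis genes were thus at a low level in muscle, at most 9.44 CPM per kilobase in any library, against between 23.4 and 30.5 for Slc6a8.

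Among the adenylate genes the fast-muscle enzymes were close between the groups. Ak1 (chromosome 2, 32621758 to 32635058) was at 1156, 1626 and 1153 CPM in CAAHR replicates 31, 34 and 36 and at 1429, 1485 and 1449 CPM in GFP replicates 42, 43 and 46. CAAHR replicates 31 and 36 lay below the GFP libraries and replicate 34 above them, and the log2 fold change was -0.15 ± 0.15 (SE). Ampd1 (chromosome 3, 103074014 to 103099720), the skeletal muscle AMP deaminase, was at 1247, 1579 and 1306 CPM against 1579, 1341 and 1347 CPM. Its log2 fold change was -0.05 ± 0.13, and the sign turned with library size only (0.0312).

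Ampd3 (chromosome 7, 110768206 to 110812405), the AMP deaminase isoform first known from red blood cells, was far less abundant and had the largest positive fold change of the members. It was at 21.4, 11.3 and 17.1 CPM in CAAHR replicates 31, 34 and 36 and at 13.1, 7.98 and 7.48 CPM in GFP replicates 42, 43 and 46. Replicate 34 lay below GFP replicate 42, so the groups overlapped. The log2 fold change of 0.80 ± 0.29 (SE) did not pass (edgeR adjusted p 0.153). It passed without CAAHR replicate 34 (1.01, edgeR adjusted p 0.0434), with DESeq2 (adjusted p 0.0166) and without a filter on low counts (edgeR adjusted p 0.0174). The count ratio of Ampd3 to Ampd1 differed by 0.85 on the log2 scale (exact permutation test, p = 0.2, adjusted value 0.3). Erythroid markers, here 4 globin genes and Alas2 of heme synthesis, summed to between 100.3 and 227 CPM in AAV9-HSA-CAAHR libraries and between 100.8 and 185 CPM in GFP libraries, with no gene of the list called, and their part in the Ampd3 values was not tested. Exons of Ampd3 share 195 bases with the opposite-strand gene Rnf141, which had between 1039 and 1590 counts against 332 to 1081 for Ampd3, and whether the libraries were stranded is not given in the sources used here.

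**Figure D4:**
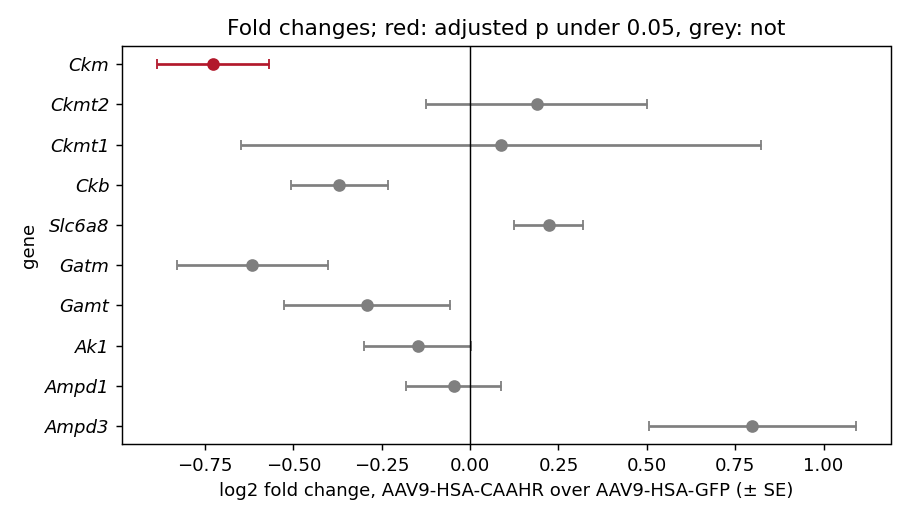
Log2 fold changes of the 10 genes (x axis, AAV9-HSA-CAAHR over AAV9-HSA-GFP, bars ± SE, 3 libraries per group), red where the adjusted p was under 0.05. Ckm (-0.73) is the single red point, Ampd3 (0.80) and Gatm (-0.62) are about as far from 0 with wider bars, and Ckmt1 has the widest bar.

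Ordered by mean CPM per kilobase in GFP muscles, the members ran from Ckm (9842) through Ak1 (561), Ckmt2 (433) and Ampd1 (401) to Slc6a8 (24.8). Then came Gamt (8.32), Ckb (3.23), Gatm (1.77), Ampd3 (1.69) and Ckmt1 (0.0740). In AAV9-HSA-CAAHR muscles the order was Ckm (5947), Ak1 (506), Ckmt2 (494), Ampd1 (388) and Slc6a8 (28.9), and then Gamt (6.79), Ampd3 (2.94), Ckb (2.502), Gatm (1.15) and Ckmt1 (0.0798). Neighbours in the order whose libraries overlapped were Ak1 and Ckmt2, and Ckmt2 and Ampd1, in both groups. Gatm and Ampd3 overlapped in GFP muscles and Ampd3 and Ckb in AAV9-HSA-CAAHR muscles. Lengths were the merged exons of all annotated transcripts, which can exceed the length of the transcript in use.

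The wider pathway was followed in 6 lists with 76 genes, of which 71 were tested. In these lists 5 genes were called (7.04% of those tested, beside 7.60% of all tested genes), 1 higher and 4 lower. An unadjusted p under 0.05 was reached by 25 of them (35.2%), beside 23.9% of all tested genes. The median log2 fold change of the 71 genes was -0.01.

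The called genes lay in 2 of the lists. In the list of ATPases served by creatine kinase and anchors of the M-band, 1 of 8 tested genes rose and 1 fell. Myom1, which encodes the M-band protein myomesin that muscle creatine kinase binds, was at 1672, 1658 and 1683 CPM in CAAHR replicates 31, 34 and 36. It was at 2267, 2244 and 2274 CPM in GFP replicates 42, 43 and 46. The libraries of each group lay close together and the groups did not overlap (log2 fold change -0.44 ± 0.11, edgeR adjusted p 0.0378). Myom1 kept its call in 1 of the 6 fits without 1 library, that without CAAHR replicate 34. It lost the call with library size only and with the slow-fibre covariate (edgeR adjusted p 0.202). The other myomesin genes of the list, Myom2 (0.10 ± 0.12) and Myom3 (2.36 ± 0.59, edgeR adjusted p 0.0871), had positive log2 fold changes and were not called. Of the 8 genes 6 had a positive fold change, and the list's median log2 fold change was 0.44.

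In the list of arginine, glycine and methyl supply, 3 of 16 tested genes fell and none rose, with a median log2 fold change of -0.19. Of the enzymes around serine in this list, Psph, which follows Psat1 in serine synthesis, had a log2 fold change of 0.0017 ± 0.13, and Shmt2, the mitochondrial counterpart of Shmt1, of -0.15 ± 0.09 (edgeR adjusted p 0.351). Both were named after their values were seen. Phgdh, the gene of the first enzyme of serine synthesis, was at 1.23, 1.09 and 1.76 CPM in CAAHR replicates 31, 34 and 36 and 4.35, 3.39 and 4.46 CPM in GFP replicates 42, 43 and 46. No library overlapped, and its log2 fold change was -1.58 ± 0.23 (edgeR adjusted p 0.00365). Shmt1, the cytosolic enzyme that forms glycine from serine, was at 4.65, 5.67 and 4.04 CPM against 9.18, 9.64 and 8.01 CPM (-0.90 ± 0.16, edgeR adjusted p 0.00897). Phgdh and Shmt1 kept their calls in 6 of the 6 fits without 1 library. With the slow-fibre covariate Phgdh kept its call (-2.01 ± 0.42, edgeR adjusted p 0.0291) and Shmt1 lost it (-0.48 ± 0.24, edgeR adjusted p 0.333). Psat1, the aminotransferase after Phgdh in the same route, had a log2 fold change of -1.02 ± 0.27 with an adjusted p of 0.0487 by edgeR. It lost its call in each of the 6 fits, where the adjusted p was between 0.0568 (without CAAHR replicate 36) and 0.156 (without GFP replicate 42). With the slow-fibre covariate Psat1 also lost its call (edgeR adjusted p 0.235). It was at most 2.26 CPM in any library.

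None of the other lists held a called gene by edgeR. Of the other adenylate and nucleotide kinases, 4 of 14 tested genes were at an unadjusted p under 0.05. Ak3, the matrix GTP-AMP phosphotransferase gene, was at 41.1, 37.7 and 37.3 CPM in CAAHR replicates 31, 34 and 36 and 47.6, 51.1 and 46.7 CPM in GFP replicates 42, 43 and 46 (log2 fold change -0.32 ± 0.09, edgeR adjusted p 0.0543). Nme2, a nucleoside diphosphate kinase gene and the most abundant of the list, had a log2 fold change of -0.02 ± 0.11.

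Of the purine nucleotide cycle and AMP breakdown genes, 7 of 16 were at an unadjusted p under 0.05, and the list's median log2 fold change was -0.13. Adssl1, the muscle adenylosuccinate synthase that returns IMP towards AMP, was at 772, 1024 and 950 CPM in CAAHR replicates 31, 34 and 36 and between 997 and 1018 CPM in GFP libraries (-0.14 ± 0.13). Adsl, the lyase of the same cycle, had a log2 fold change of -0.11 ± 0.09. Of 11 subunits of the AMP-activated kinase and its upstream kinases, 2 were at an unadjusted p under 0.05. One was the muscle regulatory subunit Prkag3, at 345, 590 and 384 CPM against 304, 288 and 269 CPM (0.61 ± 0.19, edgeR adjusted p 0.0866). Prkab2, the most abundant of that list, had a log2 fold change of 0.06 ± 0.17.

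Of 6 tested genes of mitochondrial ATP and ADP exchange, 2 were at an unadjusted p under 0.05, and for 4 every AAV9-HSA-CAAHR library lay below every GFP library, as was so for 14.9% of all tested genes. Over the 6 lists together the groups did not overlap for 25 genes (35.2%), beside 29.9% of all tested genes. Slc25a4, the muscle adenine nucleotide translocase, was at 2532, 2315 and 2517 CPM in CAAHR replicates 31, 34 and 36 and 2607, 2859 and 3255 CPM in GFP replicates 42, 43 and 46 (-0.24 ± 0.13, edgeR adjusted p 0.280). Vdac1, the most abundant outer membrane channel gene of the list, had a log2 fold change of -0.15 ± 0.11. The list also held Vdac2, another outer membrane channel gene, which the study had named from these libraries. It was at 231, 235 and 221 CPM in CAAHR replicates 31, 34 and 36 and 251, 294 and 287 CPM in GFP replicates 42, 43 and 46, so that the groups did not overlap, but its log2 fold change of -0.28 ± 0.10 did not pass (edgeR adjusted p 0.136). The study did not use this test, and a DESeq2 value for Vdac2 is not given here.

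Fibre-type transcripts differed beside the creatine kinases. The 11 fast fibre markers summed to 148587, 204846 and 171775 CPM in CAAHR replicates 31, 34 and 36, the order of their Ckm levels, and to 216528, 214907 and 209491 CPM in GFP replicates 42, 43 and 46, the reverse of their Ckm order. Of these 11 genes 3 were called lower (Myl1, Tnnt3 and Tnni2) and none higher, and 9 had a negative and 2 a positive fold change. Myh4, the most abundant, had a log2 fold change of -0.31 ± 0.18, and Atp2a1, the next, of -0.0096 ± 0.16. The positive ones were the fast myosin genes Myh2 (1.38 ± 0.81, edgeR adjusted p 0.386) and Myh1 (0.997 ± 0.65, edgeR adjusted p 0.427). For both genes the groups overlapped. Of the 10 slow fibre markers 1 was called higher (Myh7b), 9 were at an unadjusted p under 0.05 and 10 had a positive fold change. The most abundant of these, the slow myosin gene Myh7, was at 877, 156 and 809 CPM in CAAHR replicates 31, 34 and 36 and at 37.5, 52.6 and 79.5 CPM in GFP replicates 42, 43 and 46. Within each group Ckmt2 followed the order of the summed slow fibre level, but GFP replicate 46 reached 842 CPM of Ckmt2 at 489 CPM of slow fibre markers, and CAAHR replicate 34 had 447 CPM at 677. In CAAHR replicate 34, where both summed levels came nearest to GFP muscles, Ckm was at 20556 CPM, under each GFP library. Of the 11 fast markers 6 were below every GFP library in all AAV9-HSA-CAAHR libraries, beside 14.9% of all tested genes. In replicate 34 these included Tnnt3 (20300 CPM), Myl1 (6721 CPM) and Tnni2 (7489 CPM). Myh4, the largest part of the fast sum, was within the GFP range there at 86292 CPM. The part of fibre type in the Ckm and Ckmt2 values was not tested. With the slow-fibre covariate Ckmt2 turned to -1.08 ± 0.20 (edgeR adjusted p 0.0199). That covariate was between -0.21 and 1.93 in AAV9-HSA-CAAHR libraries and between -1.67 and -0.67 in GFP libraries. The groups did not overlap in it, so this fit cannot separate fibre type from vector. In whole muscle, fewer fibres of a type and less RNA per fibre cannot be told apart.

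**Figure D5:**
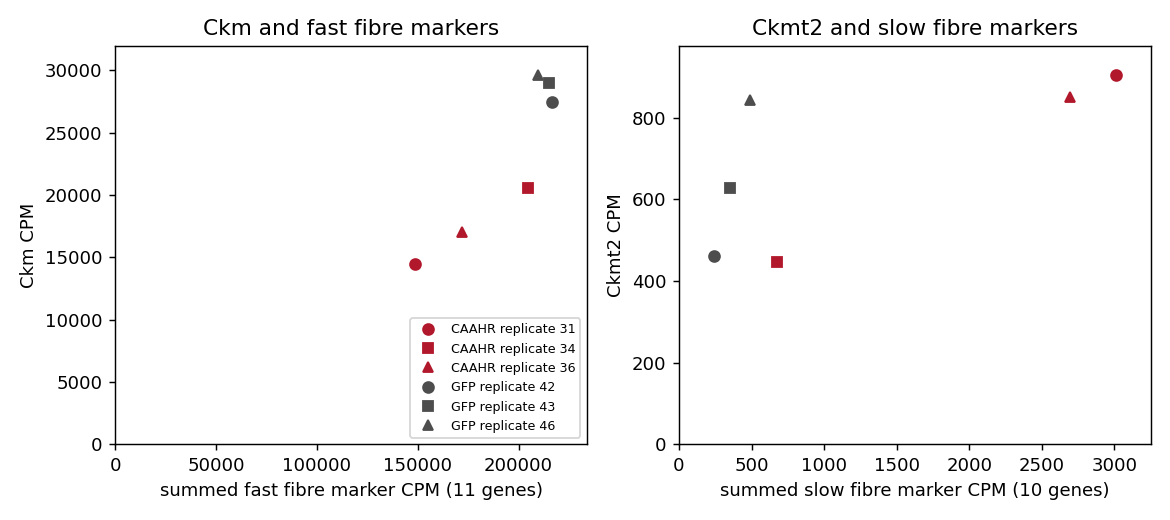
Ckm CPM against the summed CPM of 11 fast fibre markers (left) and Ckmt2 CPM against the summed CPM of 10 slow fibre markers (right), 1 point per library, red for AAV9-HSA-CAAHR and grey for AAV9-HSA-GFP. CAAHR replicate 34 lies next to the GFP libraries in summed fast fibre level (204846 CPM) and below them in Ckm, and Ckmt2 spans a like range in both groups.

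Markers of other cell types were checked because Ckb, Gatm, Gamt and Ampd3 are also expressed outside muscle fibres. Leukocyte markers were lower in AAV9-HSA-CAAHR muscles, where the 10 genes summed to between 31.9 and 43.6 CPM against 158 to 475 CPM in GFP muscles, and 5 of 10 were called lower with Ighm the most abundant. By quantitative PCR the study found selected immune genes not lower in CAAHR muscles than in muscles without virus. It reads this as a local immune response to the GFP vector. No muscle without virus was among the libraries used here. Of 5 adipocyte markers 2 were called lower, Plin1 and Cfd, and all 5 had a negative fold change, with a median log2 fold change of -2.09. Their summed level was 85.7 to 134 CPM against 103 to 212 CPM. Most of that sum was Fabp4, at group means of 104 and 106 CPM with a log2 fold change of -0.03. No endothelial, fibroblast, smooth muscle or Schwann cell marker was called. The most abundant of the first 3 lists were Cdh5 (log2 fold change 0.10 ± 0.14), Dcn (-0.17 ± 0.23) and Acta2 (-0.22 ± 0.30). Smooth muscle markers summed to between 57.6 and 138 CPM in AAV9-HSA-CAAHR and between 108 and 133 CPM in GFP muscles, and Schwann cell markers to between 44.6 and 72.9 CPM and between 72.7 and 122 CPM. Summed levels were 353 to 714 and 531 to 664 CPM for fibroblasts, and 148 to 217 and 146 to 190 CPM for endothelial cells. None of these markers was at 0 in all libraries, and the part of other cells in the values of Ckb, Gatm, Gamt and Ampd3 was not tested. Nor was it tested for Phgdh, Shmt1 and Psat1, which were at low levels and, like the leukocyte markers, lower in AAV9-HSA-CAAHR muscles.

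The genes with the pattern nearest to Ckm over the 6 libraries were Tnnt3, Cib2, Smtnl2, Dhrs7c and Myl1, out of 2338 genes with a mean of at least 50 CPM. Likeness was the root mean square distance between log2 CPM profiles after each gene's mean was removed, and it was 0.06 for Tnnt3, 0.08 for Cib2, 0.09 for Smtnl2, 0.10 for Dhrs7c and 0.10 for Myl1, with a median of 0.44. Tnnt3, fast troponin T, was at 15179, 20300.3 and 15759 CPM in CAAHR replicates 31, 34 and 36 and at 26984, 27487 and 27938 CPM in GFP replicates 42, 43 and 46. Of the members with at least 50 CPM, Ak1 ranked 253rd, Ampd1 588th, Slc6a8 1800th and Ckmt2 2170th by distance to Ckm. These distances describe 6 libraries and include the difference between groups.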

How the data were processed

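Poly(A)-selected RNA from 6 gastrocnemius muscles was sequenced as paired reads of 150 bases. The table deposited by the authors held whole-number counts of each gene in each library, neither normalised nor pooled. As the authors describe, reads were trimmed with Trimmomatic 0.36, aligned to GRCm38 with STAR 2.5.2b, and featureCounts then assigned unique exon reads to genes. By the authors' description counting followed strand where a library was stranded, but the library type was not stated, and genes with overlapping opposite-strand exons (among the members Ckm, Ckmt2, Ckmt1 and Ampd3) carry some uncertainty. The opposite-strand gene at Ckm had at most 1451 counts.

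Libraries were assigned by their titles. The study describes 3 male mice per group, and each library was taken as 1 animal. Libraries of a group differed beyond sampling noise (lowest chi-square over its degrees of freedom 21.6), and none was a repeat. Counts were fitted in R 4.3.3 with edgeR 4.0.16 (filterByExpr, TMM, robust quasi-likelihood F test) across all genes, and p-values were adjusted by the Benjamini-Hochberg method. The SE was derived from the F statistic. Alternatives used DESeq2 1.42.0, the authors' tool, limma 3.58.1 voom with sample weights, other scalings and filters, a slow-fibre covariate, and leaving out each library. Ratios and shares were compared with exact permutation tests (scipy 1.17.1). Positions and exon lengths came from GENCODE M21 (GRCm38), in which 99.3% of 49315 identifiers were found, and promoter sequences from RefSeq (GRCm38.p6). Named were all members, called genes of each pathway list or else its 2 most abundant, the 5 genes nearest to Ckm, the most abundant gene of each marker list, and reference genes (Acta1, Myh4, Myh7, Ahr and Cyp1a1). Some genes that this rule names are not reported here. Vdac2, Psph, Shmt2, Myom2, Myom3 and further marker genes were also named, after their values were seen. Rows without a symbol (174, holding 0.0154% of counts) were kept. The fits were tested on simulated data. Members and lists were chosen with earlier results of these data known.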

Additional observations from a re-analysis of the deposited data

How the results depend on the processing

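No paired analysis was possible because no replicate number occurred in both groups. Over 327 checks of 25 results, 254 kept their direction and side of the threshold (for counts, stayed within 1.5 times), 28 were weaker, 4 stronger, 26 moved and 15 reversed. Called members, 1 as reported (0 higher, 1 lower), were 3 without a filter on low counts (1 higher, 2 lower) and 2 with DESeq2 (1 higher, 1 lower). With 1 library left out they ranged from 0 to 2 (higher 0 to 1, lower 0 to 1), and the called pathway genes, 5 as reported, from 2 to 11. The latter were 9 with upper quartile scaling, 11 without a filter and 11 with DESeq2. Gatm (log2 fold change -0.60) passed without a filter, and Ampd3 passed without a filter (0.81) and with DESeq2 (0.80). With the slow-fibre covariate, which is largely aligned with the groups, Ckm lost its call (-0.40), and Ckmt2 (-1.08), Gamt (0.44), Ak1 (0.30) and Ampd1 (0.33) changed sign, as did Ampd1 with library size only (0.0312) and Ckmt1 with limma-voom (-1.20). With 1 library left out, log2 fold changes ranged from -0.88 to -0.62 for Ckm, from 0.57 to 1.10 for Ampd3, from -0.0017 to 0.44 for Ckmt2, from -0.51 to 0.65 for Ckmt1 and from -0.16 to 0.0367 for Ampd1, and the log2 ratio of Ckm to Acta1 from -0.12 to 0.12. The cause was not tested. Over all genes 1205 were called, beside 2470 without a filter, 1932 with DESeq2, 459 with the covariate and 530 to 1727 with 1 library left out. The median log2 fold change of all genes was 0.01 as reported, 0.09 with library size only and -0.06 with upper quartile scaling. Depth limited Ckmt1, with at most 17 counts in a library.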
